A study of Mus musculus with 16 samples.

Results

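Smtn, Cdh15, Serpind1, R3hdml, Arap3, Ank, Apoa1 and Gzme are 8 genes of no shared pathway that were among the strongest decreases in cancer cells sorted as mScarlet-positive. They were picked by hand for those decreases from 24467 genes in the count files, and no threshold for the choice was stated. All 8 had an entry in the files and passed the filter on low counts, as did 15963 genes in all. Because the decrease chose them, every comparison of an mScarlet-gated population (mScarlet or DP) with an mScarlet-negative one is given here as a description only.

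RNA was sequenced in bulk from KPC mouse pancreatic ductal adenocarcinoma cells that carry a 7TCF-eGFP reporter and Porcn-DMA, a construct whose parts are not described in the sources used here. The cells had been grown in the mouse pancreas, and the dissociated tumours were sorted by fluorescence into 4 gates of 4 libraries each, with 4 mice per group. The gates are DP (mScarlet and GFP), mScarlet alone, GFP alone and DN (neither), and all 4 share the cell line and its constructs. GFP reads out TCF-driven transcription in the design, while no label says in words what mScarlet marks, and neither the age nor the genotype of the host mice is given in the labels. Total counts were 80647185 to 104273669 per library. Levels below are in CPM, counts scaled to a common library total with TMM factors, in libraries 1 to 4 of each gate, and a library number does not name a mouse in the labels. Markers of epithelial cancer cells (Epcam, Cdh1, keratins and claudins) were present in every library, with summed levels of 26366 to 33556 CPM in DP, 27117 to 41583 in mScarlet, 15250.0 to 28861 in GFP and 23780.0 to 27698 in DN.

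The 8 proteins act in different places. Smoothelin (Smtn) binds actin filaments and is known from contractile smooth muscle, M-cadherin (Cdh15) is a calcium-dependent adhesion protein of muscle precursors, and Arap3 is a GTPase-activating protein for ARF proteins downstream of PI3-kinase. Serpind1 (heparin cofactor II, a thrombin inhibitor) and Apoa1 (the main protein of high-density lipoprotein) are plasma proteins made mostly in the liver, Apoa1 also in the gut. R3hdml belongs to the CAP superfamily of secreted proteins, Ank is a membrane protein that governs the release of pyrophosphate, an inhibitor of mineral deposition, and Gzme is a mouse granzyme, a serine protease of cytotoxic lymphocyte granules.

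In each of the 8 genes both mScarlet-gated populations averaged less than both mScarlet-negative ones. Inside the mScarlet gate, the means of DP and mScarlet differed by 1.01-fold (Arap3) to 2.25-fold (Cdh15). In mScarlet vs DN, 6 of 8 passed the edgeR quasi-likelihood test at an adjusted p under 0.05 in the lower direction, where 0.695% of all 15963 genes did. In DP vs DN 7 of 8 did (1.71% of all genes), in DP vs GFP 2 of 8 (0.363%), and in the mean of mScarlet and DP against the mean of DN and GFP 8 of 8 (5.21%, with a further 3.52% of all genes called higher). These counts restate the choice of the genes. The median log2 fold change of the 8 was -2.66 in mScarlet vs DN, -3.03 in DP vs DN and -2.57 in DP vs GFP, beside medians of -0.003, 0.02 and -0.04 over all genes tested. The libraries did not overlap for 7 of 8 genes in each of those comparisons, where 11.1%, 13.0% and 8.12% of all genes tested did not. The genes were not the extreme of the whole table. In mScarlet vs DN they ranked from 360 (Gzme) to 738 (Arap3) of 15963 counted from the lowest fold change, and from 19 to 55 of the 8255 genes with at least 10 CPM in one of the gates compared, a floor that Cdh15 did not reach.

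How many passed depended on single libraries in each of those 3 comparisons. In mScarlet vs DN the count was 0 without mScarlet library 1, 2 or 3 or without DN library 1, and 2 without DN library 2 or 4. Of all genes tested, 188 were called in either direction in the main fit. In these settings, in that order, 23, 48, 34, 17, 92 and 56 were. The count of the 8 was 3 without DP library 1 or 3 (129 and 118 of all genes), which enter that comparison only through the shared spread. In DP vs DN the count was 2 without DP library 1, 2 or 3 or DN library 1, and 4 without DN library 2. Of all genes, 119, 158, 159, 105 and 221 were called there in that order, against 371 in the main fit. In DP vs GFP the count was 0 without DP library 1, 2 or 3 or GFP library 1, 1 without mScarlet library 2, GFP library 4 or DN library 2 or 4, and 4 without GFP library 3. Of all genes, 1 was called in each setting with 0 of the 8, and 31, 7, 31 and 14 in those with 1. Without GFP library 3, 297 were called, against 90 in the main fit. In the pooled comparison the count of the 8 stayed at 8 whichever library was left out. Of all genes, 861 to 1640 were called there, against 1393 in the main fit. The direction of each fold change was lower in all 25 other settings of each of the 3 comparisons, and in all 24 of the pooled one.

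**Figure D1:**
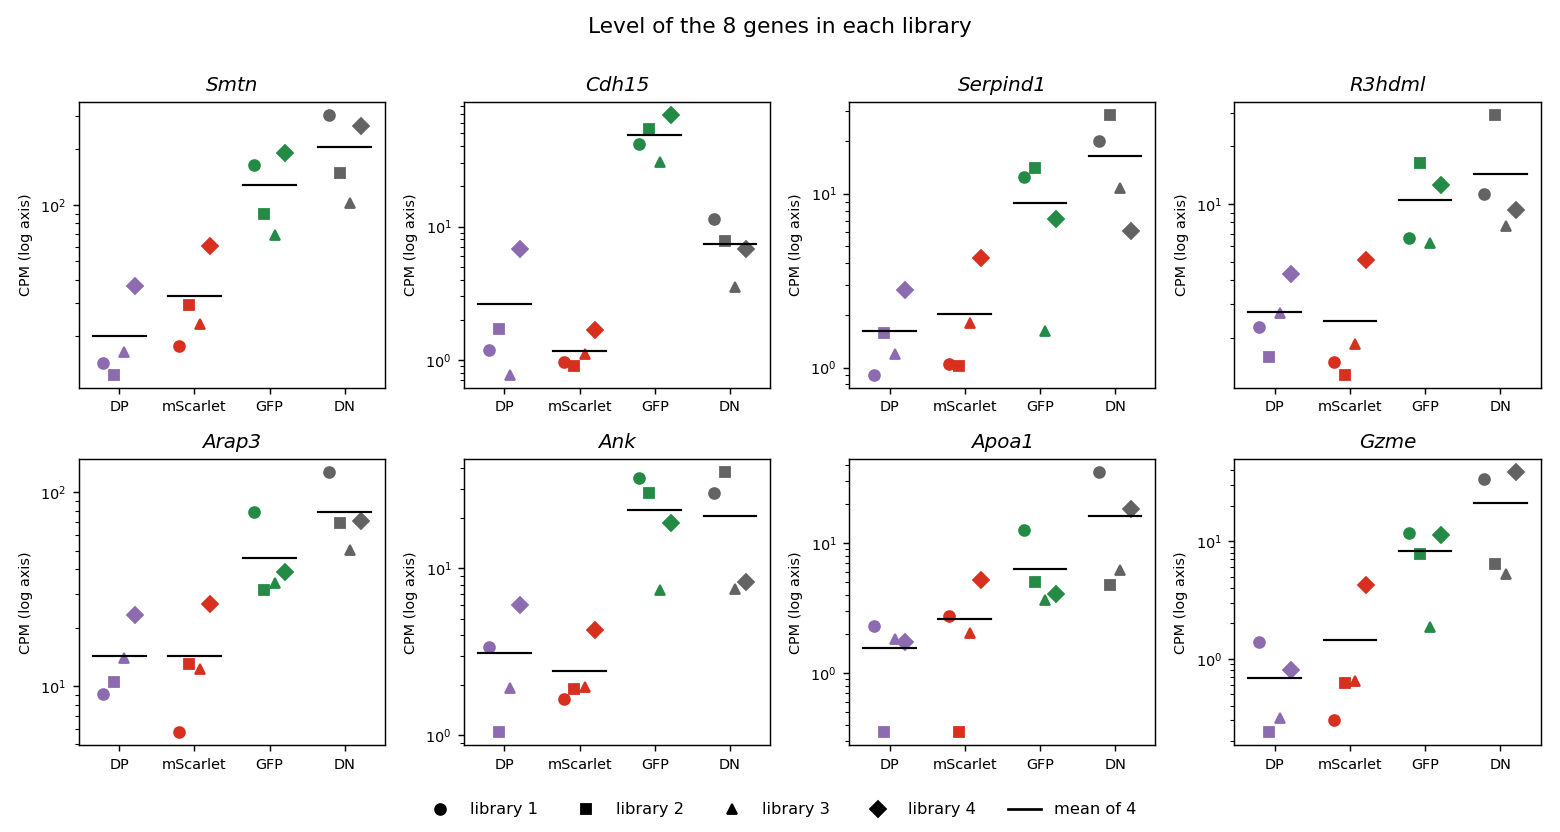
Level of each of the 8 genes (CPM, TMM-scaled, log axis) in every library, with the gates DP, mScarlet, GFP and DN from left to right, 1 marker shape per library number and a line at the mean of 4 libraries. The DP and mScarlet points lie low in every panel, library 4 is the highest mScarlet point in all 8, and Cdh15 alone has all GFP points above all DN points.

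Smtn (chr11:3517522-3539292, minus strand, GRCm38.p6, Entrez 29856) had the most counts of the 8. It stood at 14.3, 12.4, 16.5 and 36.9 CPM in DP, 17.7, 29.3, 23.1 and 60.1 CPM in mScarlet, 164, 90.01, 69.1 and 190.1 CPM in GFP and 304, 148, 103 and 263 CPM in DN. Every DP and mScarlet library lay below every GFP and DN library, with the highest mScarlet-gated value (mScarlet library 4) under the lowest GFP one (library 3). The mean was 20.0 ± 11.4 CPM in DP, 32.6 ± 19.0 CPM in mScarlet, 128 ± 57.8 CPM in GFP and 204 ± 94.4 CPM in DN (SD, n = 4 each), 10.2-fold lower in DP than in DN and 6.27-fold lower in mScarlet than in DN. Of its family, Smtnl2 was lower in the pooled comparison of mScarlet and DP with DN and GFP (log2 fold change -1.004, SE 0.20), and Smtnl1 had 6 counts in all. A stretch holding 245 of the 3287 windows of 100 bases in the longest Smtn coding transcript (7.45%) is also found in Gm11946, an annotated transcript of the opposite strand at the same locus that has no entry in the count files. The sources used here do not say whether counting used strand, so reads from it could be counted as Smtn.

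Cdh15 (chr8:122848374-122867397, plus strand, Entrez 12555) had a pattern of its own among the 8, with its high levels in the GFP gate. It was at 1.19, 1.69, 0.774 and 6.78 CPM in DP, 0.969, 0.893, 1.10 and 1.67 CPM in mScarlet, 41.4, 53.6, 30.6 and 69.1 CPM in GFP and 11.3, 7.78, 3.52 and 6.77 CPM in DN. The 4 GFP libraries lay above all 12 others, mScarlet lay below DN in every library, and DP overlapped DN through DP library 4. The mean was 2.61 ± 2.81 CPM in DP, 1.16 ± 0.352 CPM in mScarlet, 48.7 ± 16.6 CPM in GFP and 7.35 ± 3.21 CPM in DN (SD, n = 4 each). That made Cdh15 18.6-fold lower in DP than in GFP (log2 fold change -4.22, SE 0.61), the lowest fold change of the 8 in that comparison. Without DP library 4 and mScarlet library 4 the gene was also among those passing in DP vs DN, a setting chosen after seeing the data. The other cadherins moved in both directions. Of 10 tested, Cdh1 (E-cadherin, the epithelial cadherin) was higher with mScarlet (log2 fold change 0.75, SE 0.22) and Cdh11, a mesenchymal cadherin, was lower (log2 fold change -2.19, SE 0.61) in the pooled comparison, and the other 8 did not pass. CACGTG, an E-box, occurs in the 250 bases before the Cdh15 start in the RefSeq promoter table, as it does in 6.02% of the 32851 windows of that table on either strand.

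Arap3 (chr18:37972623-37999531, minus strand, Entrez 106952) was at 9.11, 10.49, 13.9 and 23.3 CPM in DP, 5.75, 13.0, 12.2 and 26.3 CPM in mScarlet, 79.3, 31.4, 33.9 and 38.8 CPM in GFP and 127, 69.6, 50.2 and 71.0 CPM in DN. All 8 mScarlet-gated libraries lay below all 8 others. Its mean was 14.2 ± 6.399 CPM in DP and 14.3 ± 8.65 CPM in mScarlet, nearly equal, against 45.8 ± 22.5 CPM in GFP and 79.5 ± 33.2 CPM in DN (SD, n = 4 each). At log2 fold change -2.47, SE 0.46 in mScarlet vs DN, it had the smallest change of the 8 there. Of its relatives, 1 of 11 other tested ARF GTPase-activating proteins passed in the pooled comparison. That was Agap1, lower with mScarlet (log2 fold change -0.58, SE 0.15), while Arap1 (log2 fold change -0.14, SE 0.19) and Arap2 (log2 fold change 0.66, SE 0.31) did not pass.

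Serpind1 (chr16:17331371-17343574, plus strand, Entrez 15160) lies inside the bounds of Pi4ka, which runs on the opposite strand. It was at 0.910, 1.58, 1.198 and 2.79 CPM in DP, 1.04, 1.02, 1.81 and 4.28 CPM in mScarlet, 12.6, 14.1, 1.62 and 7.18 CPM in GFP and 20.1, 28.5, 10.8 and 6.08 CPM in DN. The DP and mScarlet libraries were all below DN, and GFP library 3 fell among them. The mean was 1.62 ± 0.826 CPM in DP, 2.04 ± 1.54 CPM in mScarlet, 8.86 ± 5.67 CPM in GFP and 16.4 ± 9.98 CPM in DN (SD, n = 4 each), 8.03-fold lower in mScarlet than in DN. Pi4ka averaged 29.5 ± 11.5 CPM in DP, 30.5 ± 7.74 in mScarlet, 27.5 ± 14.0 in GFP and 21.4 ± 3.78 in DN, and did not pass (pooled log2 fold change 0.31, SE 0.25, edgeR adjusted p = 0.501). Among 7 other tested serpins, Serping1 (the C1 inhibitor of complement) and Serpina3n were lower with mScarlet in the pooled comparison, with GFP library values reaching 2127 and 261 CPM.

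Serpind1 is the one gene of the 7 in the RefSeq promoter table (GRCm38.p6) whose 250 bases upstream of the start hold CTTTGAT, a TCF/LEF-type heptamer, on either strand, and 3.21% of the 32851 windows in the table hold it. The sequence (chr16:17331121-17331370, plus strand) is shown since the sort itself used a TCF reporter, with the match, read as its reverse complement, in capitals.
Serpind1: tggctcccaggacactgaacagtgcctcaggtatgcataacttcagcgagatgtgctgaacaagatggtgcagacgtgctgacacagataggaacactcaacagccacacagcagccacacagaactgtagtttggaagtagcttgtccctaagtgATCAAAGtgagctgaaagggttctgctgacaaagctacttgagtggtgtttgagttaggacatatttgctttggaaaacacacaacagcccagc
TGANTCA, an AP-1 type motif, and TATAAA occur in none of the 7 windows, against 6.75% and 12.4% of all windows. A match of letters is a description and not a binding site.

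Apoa1 (chr9:46228630-46230469, plus strand, Entrez 11806) was at 2.29, 0.351, 1.83 and 1.75 CPM in DP, 2.77, 0.350, 2.05 and 5.24 CPM in mScarlet, 12.6, 4.99, 3.68 and 4.09 CPM in GFP and 35.2, 4.78, 6.24 and 18.4 CPM in DN. Library 2 was the lowest of DP, of mScarlet and of DN, and mScarlet overlapped DN through library 4. Its mean was 1.55 ± 0.836 CPM in DP, 2.60 ± 2.03 CPM in mScarlet, 6.34 ± 4.21 CPM in GFP and 16.2 ± 14.1 CPM in DN (SD, n = 4 each), 10.4-fold lower in DP and 6.21-fold lower in mScarlet than in DN. The difference of mScarlet from DN did not pass by edgeR. It passed by DESeq2 (adjusted p = 0.0095), where 808 of all genes did, and not by limma voom (adjusted p = 0.102). Among 10 other tested genes of lipoproteins, Apoa4 alone passed in the pooled comparison and was lower, with 0 to 0.0242 CPM in DP, 0 in all mScarlet libraries, 0 to 2.83 in GFP and 0 to 5.93 in DN. Apoe ran from 79.8 CPM in an mScarlet library to 12298 in a GFP library and did not pass.

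R3hdml (chr2:163491439-163502621, plus strand, Entrez 100043899) was at 2.28, 1.58, 2.69 and 4.31 CPM in DP, 1.497, 1.28, 1.86 and 5.12 CPM in mScarlet, 6.60, 16.4, 6.25 and 12.6 CPM in GFP and 11.3, 29.3, 7.70 and 9.31 CPM in DN. No mScarlet-gated library reached a GFP or DN library, although mScarlet library 4 came near GFP library 3. The mean was 2.71 ± 1.16 CPM in DP, 2.44 ± 1.80 CPM in mScarlet, 10.47 ± 4.92 CPM in GFP and 14.4 ± 10.0 CPM in DN (SD, n = 4 each), 5.90-fold lower in mScarlet than in DN. Of 6 other tested CAP superfamily genes, Pi16 (log2 fold change -5.87, SE 1.40) and Crispld2 (log2 fold change -4.37, SE 0.86) were lower in the pooled comparison. Both had their highest value in a GFP library, at 789 and 62.0 CPM. The antisense gene Hnf4aos overlaps R3hdml and averaged at most 0.211 CPM in any gate.

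Ank (chr15:27466677-27594909, plus strand, Entrez 11732) was at 3.39, 1.04, 1.91 and 6.00 CPM in DP, 1.65, 1.88, 1.95 and 4.28 CPM in mScarlet, 34.97, 28.2, 7.38 and 18.6 CPM in GFP and 28.3, 37.7, 7.56 and 8.31 CPM in DN. All DP and mScarlet libraries lay below all GFP and DN libraries, and GFP and DN covered about the same range. The mean was 3.09 ± 2.17 CPM in DP, 2.44 ± 1.236 CPM in mScarlet, 22.3 ± 12.0 CPM in GFP and 20.5 ± 15.0 CPM in DN (SD, n = 4 each), 8.39-fold lower in mScarlet than in DN. Of 9 other tested genes of pyrophosphate and phosphate handling, Nt5e (CD73, which makes adenosine from AMP) passed and was higher with mScarlet (log2 fold change 0.93, SE 0.25, pooled comparison). Enpp1, the enzyme that makes pyrophosphate outside the cell, was at 44.3 to 71.9 CPM in DP, 39.1 to 67.0 in mScarlet, 29.5 to 76.1 in GFP and 52.8 to 76.4 in DN and did not pass.

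Gzme (chr14:56117619-56120625, minus strand, Entrez 14942) had the largest fold changes of the 8 in DP vs DN and in mScarlet vs DN. It was at 1.40, 0.238, 0.315 and 0.801 CPM in DP, 0.302, 0.621, 0.643 and 4.27 CPM in mScarlet, 11.8, 7.73, 1.88 and 11.3 CPM in GFP and 33.4, 6.399, 5.29 and 38.5 CPM in DN. The DP and mScarlet libraries were all below the DN ones, with mScarlet library 4 above the lowest GFP library. The mean was 0.688 ± 0.535 CPM in DP, 1.46 ± 1.88 CPM in mScarlet, 8.18 ± 4.58 CPM in GFP and 20.9 ± 17.5 CPM in DN (SD, n = 4 each), 30.4-fold lower in DP and 14.3-fold lower in mScarlet than in DN. The mScarlet difference from DN did not pass by edgeR, with the widest error of the 8 (log2 fold change -3.84, SE 0.98). It passed by DESeq2 (adjusted p = 0.000206), where 808 of all genes did, and not by limma voom (adjusted p = 0.0717).

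Of 11 other tested granzyme and granule genes, Gzmd (log2 fold change -3.84, SE 0.86), Gzmg (log2 fold change -3.86, SE 1.08) and Gzmn (log2 fold change -5.29, SE 1.45) were lower in the pooled comparison, all from few counts. Gzmd, the next gene in the cluster at a distance of 8931 bases, was at 0.0125 to 0.230 CPM in DP, 0 to 0.132 in mScarlet, 0.718 to 0.957 in GFP and 0.254 to 2.74 in DN. Its longest coding transcript is 90.4% identical to that of Gzme, with a longest shared run of 96 bases, so that no window of 100 bases, the read length in the labels, is common to both. The sources used here do not say how reads with mismatches were placed, and the counts of these neighbours are uncertain as single genes to that extent. The 250 bases upstream of both starts (RefSeq, GRCm38.p6, minus strand) are shown because the 2 genes lie together and were both lower. They are 94.8% identical, and the capitals mark the longest shared run, 45 bases, which begins 104 bases before the Gzme start and 103 before that of Gzmd. The stretch shown for Gzme is chr14:56120626-56120875 and that for Gzmd is chr14:56132594-56132843. These starts are those of the RefSeq promoter table. The gene bound used for distances, 56132603 for Gzmd, lies inside its stretch.
Gzme: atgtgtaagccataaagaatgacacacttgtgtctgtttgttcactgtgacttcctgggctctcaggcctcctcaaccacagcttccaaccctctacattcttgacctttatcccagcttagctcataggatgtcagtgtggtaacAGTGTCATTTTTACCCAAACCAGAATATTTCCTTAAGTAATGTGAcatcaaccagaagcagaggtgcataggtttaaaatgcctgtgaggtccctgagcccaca
Gzmd: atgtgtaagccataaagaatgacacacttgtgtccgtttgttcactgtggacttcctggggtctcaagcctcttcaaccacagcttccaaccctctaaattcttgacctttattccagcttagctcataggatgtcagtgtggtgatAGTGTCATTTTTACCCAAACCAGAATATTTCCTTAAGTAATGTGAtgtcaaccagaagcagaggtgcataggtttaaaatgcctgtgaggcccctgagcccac
The same stretch of Gzmg is 79.4% identical to that of Gzme.

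Compared per length, in CPM per kilobase of annotated exon, the order of mean levels in DN was Smtn at 46.7, Gzme at 22.8, R3hdml at 13.2, Apoa1 at 13.1, Arap3 at 9.98, Serpind1 at 7.47, Ank at 5.67 and Cdh15 at 2.26. Neighbours in that order had overlapping libraries, and none of these differences between genes was tested. In GFP the highest per-length levels were those of Smtn, at 29.3, and Cdh15, at 15.0.

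Whether the genes also differ between the 2 gates outside mScarlet was tested in GFP vs DN, with the caution that both the GFP and the DN libraries had a part in the choice of the genes. By edgeR 0 of 8 passed, as did 0% of all genes tested, and 1 of 8 had an unadjusted p under 0.05, beside 1551 of 15963 genes. Beside 245 and 2 of all genes tested, DESeq2 and limma voom with quality weights each called 1 of 8. That gene was Cdh15, with every GFP library above every DN library (log2 fold change 2.73 with an SE of 0.57, edgeR adjusted p = 0.271), with adjusted p = 0.000205 by DESeq2 and 0.0051 by limma voom. Over the 25 other settings its adjusted p ran from 0.000205 to 0.623, and it passed in those 2. The other 7 had log2 fold changes from -1.35 (Gzme) to 0.12 (Ank), with a median of -0.73 over all 8, against 0.02 over all genes tested. GFP and DN libraries overlapped for all of these 7, and 4.2% of all genes tested did not overlap. The 95% intervals (normal approximation) reached from -3.09 to 0.38 for Gzme, -2.85 to 0.15 for Apoa1, -1.66 to 0.07 for Arap3 and -1.60 to 0.25 for Smtn, so a difference of 1 log2 unit below DN lies inside each of them.

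Inside the mScarlet gate, DP vs mScarlet asks whether GFP goes with a further difference. This comparison was not used for the choice, but the genes were picked for low levels in both of its gates. How far the 2 gates differ is therefore not independent of the choice. Again 0 of 8 passed by edgeR, by DESeq2 and by limma voom, as did 0% of all genes by edgeR, and 0 of 8 had an unadjusted edgeR p under 0.05, beside 460 of 15963 genes. The 2 gates overlapped for all 8, and 2.61% of all genes did not overlap. Cdh15 came nearest (log2 fold change 1.17 with an SE of 0.55, edgeR adjusted p = 1.000). Gzme was the lowest (log2 fold change -1.08, SE 0.90). The median of the 8 was -0.17, and the intervals ran from -0.87 to 0.85 for Arap3, the narrowest, to -2.84 to 0.67 for Gzme, the widest. The interval of Gzme thus covers a level in DP more than 1 log2 unit below mScarlet, while that of Arap3 does not reach 1 log2 unit on either side. The interval of Cdh15, by the same normal approximation, ran from 0.09 to 2.26 and lay above 0. The edgeR quasi-likelihood test itself gave an unadjusted p = 0.050027, not under 0.05. It allows for the number of libraries, which the normal approximation does not, so the interval is too narrow.

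The interaction compared the mScarlet difference in GFP-positive cells (DP vs GFP) with that in GFP-negative cells (mScarlet vs DN). Both of these differences had a part in the choice of the genes, so their difference is not independent of it. It passed for 0 of 8 by edgeR, DESeq2 and limma voom, as for 0% of all genes by edgeR, and 0 of 8 had an unadjusted edgeR p under 0.05, beside 525 of 15963 genes. It was negative for Cdh15 (log2 fold change -1.56 with an SE of 0.77, edgeR adjusted p = 0.9999) and lay between -0.03 (Smtn) and 0.78 (Arap3) for the other 7. Cdh15 thus fell by 4.22 log2 units in DP relative to GFP and by 2.66 in mScarlet relative to DN, and the difference between these 2 falls did not pass.

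**Figure D2:**
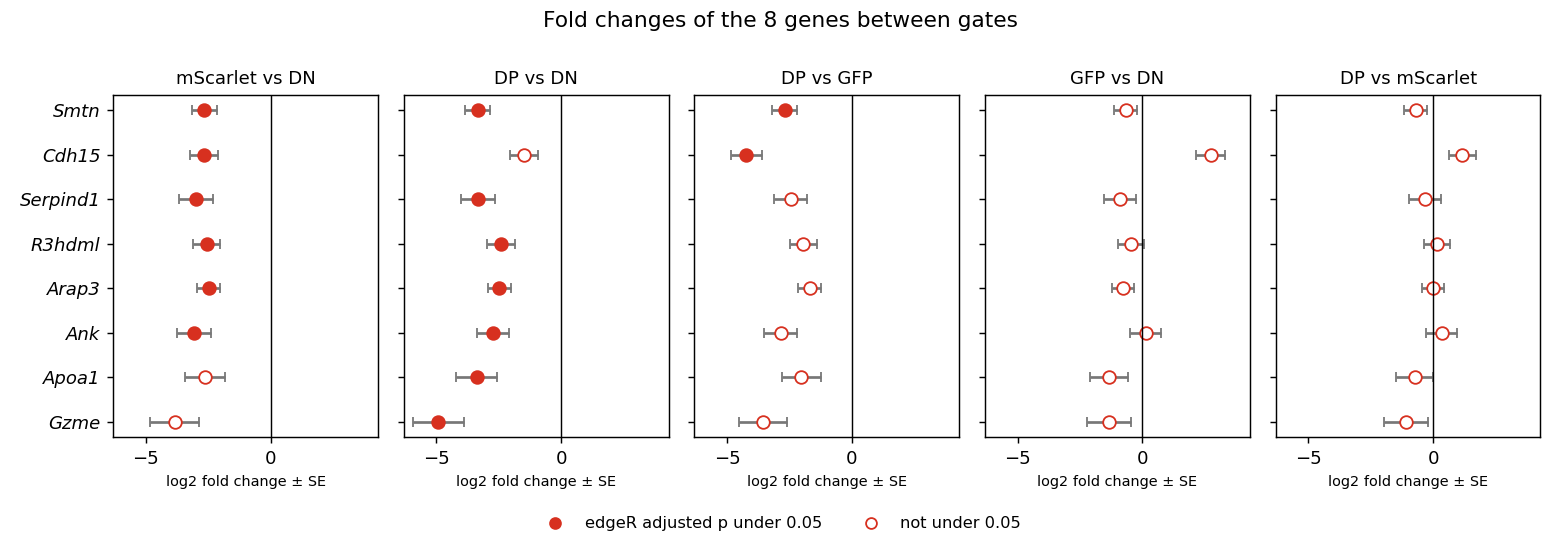
Log2 fold change ± SE of the 8 genes in 5 comparisons of gates, each named with the first gate over the second, where filled points passed an edgeR adjusted p of 0.05 and open points did not. In the left 3 panels, whose comparisons chose the genes, every point is below 0. In the right 2 panels no point is filled and Cdh15 lies farthest to the right, at 2.73 and 1.17.

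The 8 genes varied together from library to library. Over the 16 libraries, Pearson r of log2(CPM + 1) between the 28 pairs ran from 0.47 (Cdh15 with Apoa1) to 0.95 (Smtn with Arap3), with a median of 0.83. That range follows in part from the choice of the genes, since all were picked for the same gates. After subtracting each gate's mean, r was still above 0 in all 28 pairs, from 0.02 (R3hdml with Apoa1) to 0.86 (Serpind1 with Ank), with a median of 0.54. Each gene's median r with the other 15955 tested genes was between -0.01 and 0.01 on those deviations. Yet for each of the 8, some gene outside them reached a higher value on that measure than any pair of the 8. The highest ran from 0.879 (Ank with Prelid2) to 0.940 (Smtn with Rnps1). A highest value over 15955 genes is not like for like with that of 28 pairs. Whether varying together was particular to the 8 was not tested. The deviations of Smtn went with those of Arap3 (0.84), Gzme (0.81) and Cdh15 (0.73), and those of Ank with Serpind1 (0.86) and R3hdml (0.71), while R3hdml and Apoa1 were all but unrelated. The points share libraries, depth and the sort of a mouse's tumour, and these values describe the 16 libraries only.

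**Figure D3:**
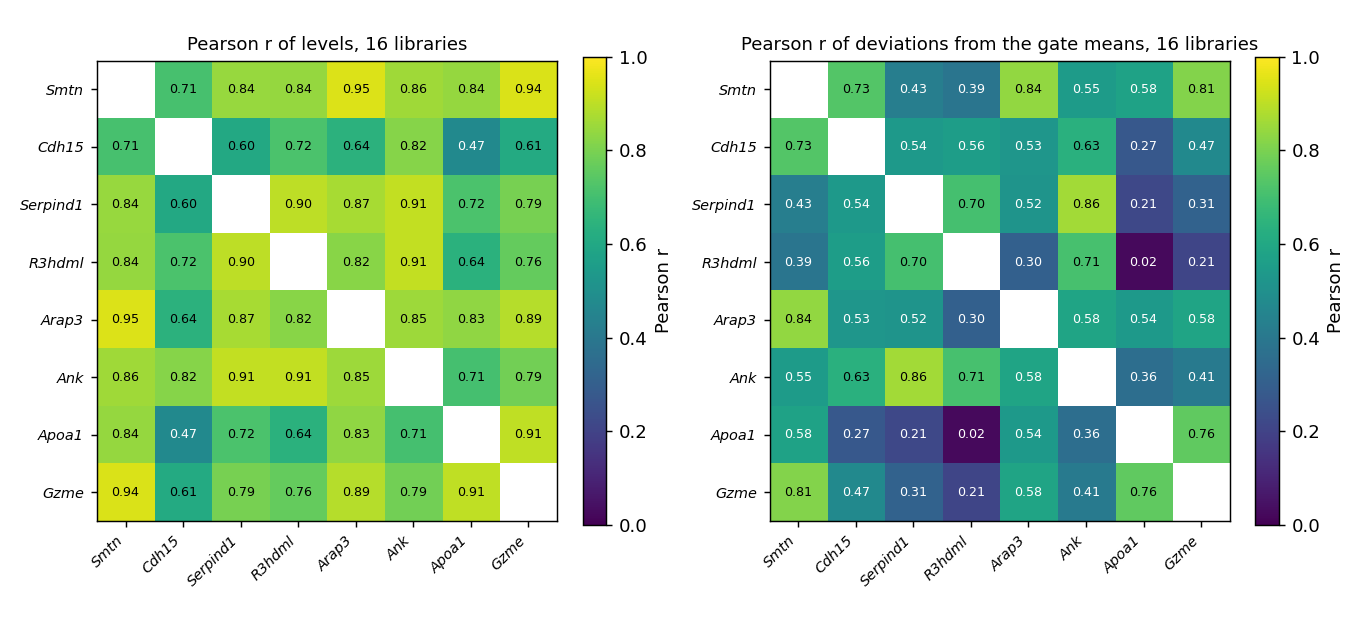
Pearson r between the 8 genes over 16 libraries, for log2(CPM + 1) on the left and for its deviations from the 4 gate means on the right, on a colour scale from 0 to 1. Values on the left run from 0.47 to 0.95, and on the right the brightest cells are Serpind1 with Ank (0.86) and Smtn with Arap3 (0.84).

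Library 4 stood highest in the mScarlet gate for all 8 genes, from 1.52 times the next mScarlet library for Cdh15 to 6.65 times for Gzme, and 7 of 8 were still under the lowest DN library there. Apoa1, at 5.24 CPM, was the exception. In DP, library 4 was the highest for 6 of 8, while the lowest library was number 3 for 7 of 8 genes in GFP and for 6 of 8 in DN. Serpind1 and R3hdml in mScarlet library 4 had 70.5% and 55.0% of their level in DN library 4, and Gzme had 11.1%. With mScarlet library 4 and DP library 4 left out together, a choice made after seeing the data, 7 of 8 passed in mScarlet vs DN, 7 in DP vs DN and 5 in DP vs GFP. Of all genes tested, 363, 384 and 174 were called there in either direction.

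By Pearson r of levels over the 16 libraries, each gene's 3 nearest genes outside the 8 were of mixed kinds. Smtn was nearest to Dok1, an adaptor of receptor tyrosine kinases (r = 0.98), M1ap and Add2, a membrane skeleton protein. Cdh15 was nearest to Mrc2, Pdgfrb and Col5a2 (r = 0.94, 0.93 and 0.93), which encode a receptor for collagen uptake, a growth factor receptor and a collagen chain. Pdgfrb was at 0.0484 to 2.14 CPM in DP, 0 to 0.166 in mScarlet, 5.71 to 40.9 in GFP and 0.985 to 9.27 in DN.

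Arap3 was nearest to Pimreg, Birc5 (survivin, of the chromosomal passenger complex) and Nt5dc2 (r = 0.97, 0.97 and 0.96), and Serpind1 to Cdca8 (borealin, of the same complex), 1700012B09Rik and Pimreg (r = 0.93, 0.92 and 0.91). R3hdml was nearest to Podnl1, S100a4 and Akr1c18, and Ank to 1700012B09Rik, the stromelysin Mmp10 and Lect2. Apoa1 was nearest to Uck2, Tmem252 and Tmem97, and Gzme to the keratin Krt23, the chromatin protein Hmga1 and M1ap (r = 0.97, 0.96 and 0.96). Krt23 ran from 14.8 to 33.8 CPM in DP, 15.8 to 62.9 in mScarlet, 31.3 to 121 in GFP and 54.4 to 162 in DN. All 24 places in these lists went to genes lower in the pooled comparison. That follows at least in part from the choice of the genes the lists were made for, and is no separate result. Those genes were picked for low levels in the mScarlet-gated libraries, and likeness was taken from levels in the same libraries. The lists depend on the measure, since with Spearman's rank correlation 0 to 2 of each gene's 3 remained, and with deviations from gate means also 0 to 2.

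The genes beside the 8 on their chromosomes were read in the pooled comparison. Of 21 adjacent or overlapping genes listed in the files, 16 were tested, with a median log2 fold change of 0.03, beside -0.02 over all genes tested. Of these, 1 passed as lower, Gzmd, and 1 as higher, Pcdh1, a protocadherin beside Arap3 (log2 fold change 0.62, SE 0.16). Of all genes tested, 5.21% passed as lower and 3.52% as higher, so counts this small are no separate result about the neighbours. Hnf4a, the endoderm transcription factor 4190 bases from R3hdml, averaged 182 ± 41.6 CPM in DP, 184 ± 40.6 in mScarlet, 139 ± 43.5 in GFP and 172 ± 28.2 in DN (SD, n = 4 each). Selenom, 171 bases from Smtn, averaged 161 ± 28.4 CPM in DP, 182 ± 23.2 in mScarlet, 198 ± 98.04 in GFP and 159 ± 23.0 in DN. Neither passed in the pooled comparison (edgeR adjusted p = 0.421 and 0.906). Apoc3, 2581 bases from Apoa1 in the same apolipoprotein cluster, averaged at most 0.1035 CPM in any gate and was not tested.

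**Figure D4:**
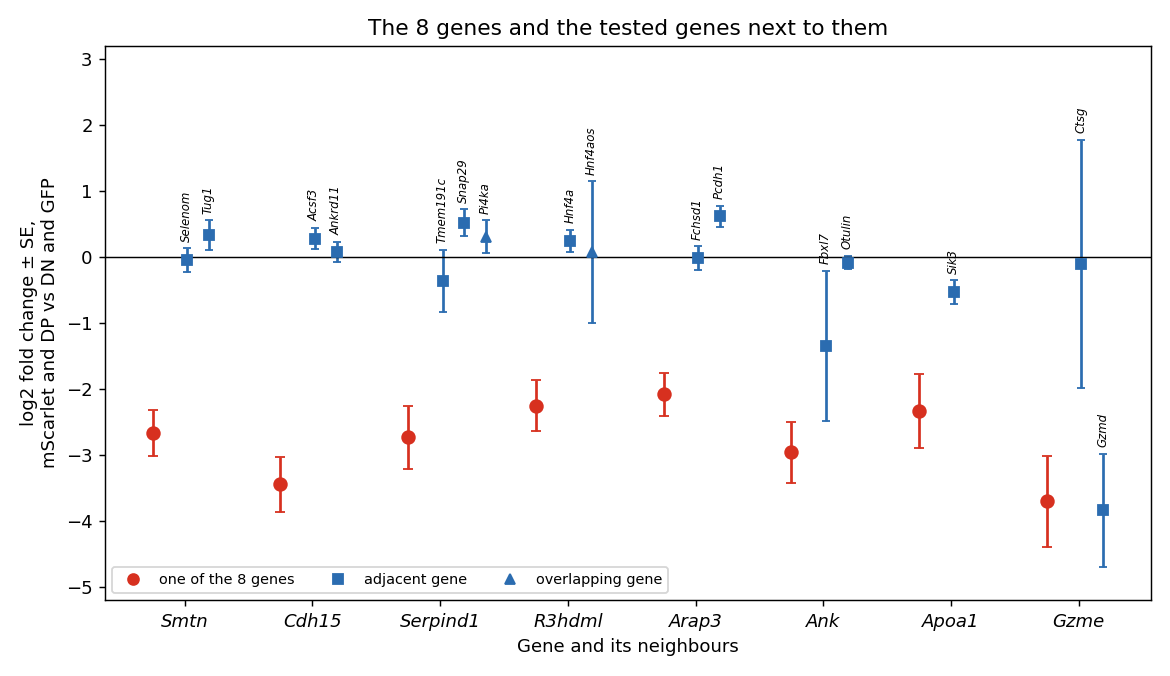
Log2 fold change ± SE in the mean of mScarlet and DP against the mean of DN and GFP, for each of the 8 genes (circles) and the tested genes adjacent to it (squares) or overlapping it (triangles). The circles lie between -3.70 and -2.08, and apart from Gzmd, at -3.84, and Fbxl7, at -1.35 with an SE of 1.14, every neighbour lies between -0.53 and 0.62.

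Markers of cell types in which the 8 proteins are best known were read beside them, since fewer cells of a type and less RNA per cell cannot be told apart in bulk libraries. For smooth muscle, Myh11 stayed at or under 1.23 CPM in every library and Lmod1 at or under 0.111, while 5 of 11 tested markers were lower in the pooled comparison, Acta2, Tagln, Cnn1, Actg2 and Synpo2. The summed list was at 29.1 to 50.5 CPM in DP, 27.3 to 33.2 in mScarlet, 52.6 to 140.1 in GFP and 32.9 to 63.5 in DN, and DP overlapped DN, unlike Smtn. For muscle precursors, Myod1 and Myog reached at most 0.183 and 0.0221 CPM and Myf5 had 0 counts in the 16 libraries, in which 3 counts are worth 0.0288 to 0.0372 CPM a library, and 0 of 4 tested markers passed by edgeR or DESeq2, 0 with an unadjusted edgeR p under 0.05, and 1 by limma voom. Chrna1, a subunit of the muscle acetylcholine receptor, averaged 1.95 CPM in DP, 2.79 in mScarlet, 5.71 in GFP and 11.4 in DN, and Acta1, skeletal muscle actin, was at 5.49 to 12.2 CPM over all libraries. The summed list was at 5.85 to 15.0 CPM in DP, 7.50 to 19.4 in mScarlet, 8.75 to 20.3 in GFP and 14.1 to 34.9 in DN. For hepatocytes, Alb stayed at or under 1.35 CPM and Fga and Fgb at or under 0.0242 and 0.333, and 0 of 6 passed by edgeR or limma voom and 1, higher, by DESeq2, with 2 at an unadjusted edgeR p under 0.05. Ttr (transthyretin) averaged 47.8 CPM in DP, 61.6 in mScarlet, 22.6 in GFP and 32.7 in DN, Ahsg reached 6.53 CPM and Cyp2e1 10.02 CPM in a GFP library, and the summed list was at 28.5 to 71.0 CPM in DP, 30.9 to 92.9 in mScarlet, 8.30 to 41.9 in GFP and 12.4 to 60.8 in DN.

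Of enterocyte markers 10 were tested, and Vil1 and Alpi were higher with mScarlet while Apoa4 was lower. Their summed list was at 214 to 334 CPM in DP, 205 to 352 in mScarlet, 109 to 206 in GFP and 121 to 179 in DN. For cytotoxic T and NK cells 0 of 10 passed by edgeR or limma voom and 1 by DESeq2, with 1 at an unadjusted edgeR p under 0.05, and the summed list was at 0.812 to 6.27 CPM in DP, 1.43 to 9.04 in mScarlet, 0.280 to 8.42 in GFP and 9.47 to 28.9 in DN. Prf1 (perforin) was at 0.549 to 3.73 CPM and Gzmb at 0.387 to 1.505 in DN, and in GFP libraries, where Gzme was at 1.88 to 11.8 CPM, Prf1 was at 0 to 1.15 and Gzmb at 0 to 0.982. For endothelial cells all 10 tested markers had fold changes below 0, 0 passed by edgeR with 3 at an unadjusted p under 0.05, and 2 passed by DESeq2 and 1 by limma voom. Their sum was 12.1 to 15.8 CPM in DP, 12.6 to 19.4 in mScarlet, 18.6 to 67.7 in GFP and 26.9 to 36.7 in DN.

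Across the mScarlet gate, fibroblast markers had fold changes in the direction of the 8 genes. All 12 were below 0 in the pooled comparison, with a median log2 of -3.79 beside -2.70 for the 8 genes, and 5 of 12 passed (Pdgfrb, Col1a1, Col1a2, Col3a1 and Dcn). In the 2 comparisons on one side of that gate 0 of the 8 genes passed by edgeR, and their signs are given as values only. Cdh15 was above 0 in both (log2 fold change 2.73 in GFP vs DN and 1.17 in DP vs mScarlet), as was Ank (0.12 and 0.34). R3hdml was above 0 in DP vs mScarlet alone (0.15). The sign changed in 6 of 25 other settings for Ank in GFP vs DN. In DP vs mScarlet it changed in 3 of 25 for R3hdml and 14 of 25 for Arap3. In GFP vs DN all 12 fibroblast markers had fold changes above 0 (median log2 2.29), where 6 of the 8 genes were below 0 (median -0.73). In DP vs mScarlet 11 of 12 markers were above 0 (median 1.51, beside -0.17 for the 8), with 0 of 12 passing in either. Their sum was 109.9, 144, 27.5 and 277 CPM in DP libraries 1 to 4, 89.1, 17.9, 31.3 and 60.5 in mScarlet, 817, 1737, 610.4 and 9360.1 in GFP and 438, 137, 175 and 1447 in DN. In DP and in GFP the 4 libraries had the same order by this sum as by Cdh15. In mScarlet and in DN they did not, since mScarlet library 1 had the highest sum and library 4 the highest Cdh15, and DN library 4 had the highest sum and the third highest Cdh15. GFP library 4 had 26568 CPM of summed acinar enzymes and GFP library 1 had 24868 CPM of summed macrophage markers, the highest of the 16 libraries in each case. In the pooled comparison, fold changes were below 0 for 11 of 12 macrophage, 12 of 12 acinar and 4 of 4 erythroid markers too. Their median log2 fold changes were -1.09, -3.245 and -1.47. In GFP vs DN these medians were 2.82, 4.34 and 3.63, and in DP vs mScarlet 2.35, -2.23 and 1.38. For cytotoxic T and NK markers the median was -1.17 in the pooled comparison, with 8 of 10 below 0. It was -1.93 in GFP vs DN (8 of 10 below 0) and -0.59 in DP vs mScarlet (6 of 10 below 0). By edgeR 0 of 12 macrophage, 0 of 12 acinar and 0 of 4 erythroid markers passed, with 1, 11 and 0 under 0.05 before adjustment. DESeq2 called 1, 9 and 0 of them and limma voom 1, 0 and 0. The part of these other cell types in the levels of the 8 genes was not tested. Without GFP libraries 1 and 4 the log2 fold change of Cdh15 in GFP vs DN was 2.501 (edgeR adjusted p = 0.603). In this setting 7 of 8 genes still passed in the pooled comparison, where 681 of all tested did. In DP vs GFP 0 of 8 passed, where 1 gene of all tested did. The log2 fold changes of the 8 in that comparison and setting ran from -4.00 (Cdh15) to -1.19 (Arap3), all below 0.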

How the data were processed

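The authors deposited 1 file of raw counts per library, with whole numbers for each Entrez gene identifier. The submitters' processing notes name STAR, DESeq2 1.24.0 and the build GRCm38 (mm10) without roles, and name neither a read counter nor an annotation nor the use of strand. Per the labels' protocols, RNA from a micro-scale column kit was made into full-length cDNA and amplified by PCR, so counting floors cover counting error only. Of 24467 identifiers, 24437 matched a symbol in the RefSeq table of GRCm38.p6, which also gave positions. Exon lengths and transcripts came from GENCODE M21, of the same build.

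Counts were tested with edgeR 4.0.16 (robust quasi-likelihood, R 4.3.3) on all 16 libraries, with gate as the only term, edgeR's expression filter and TMM scaling, Benjamini-Hochberg adjustment over 15963 genes and a threshold of 0.05. The pooled comparison sets the mean of the mScarlet and DP coefficients against that of DN and GFP. DESeq2 1.42.0, limma 3.58.1 (voom with quality weights), other scalings, no filter, a block by library number, fits of only the gates compared and fits without single libraries were alternatives. No replicate pair agreed within sampling noise (lowest chi-square per degree of freedom 78.56), and the p-values measure the spread between libraries. Likeness was Pearson r of log2(CPM + 1).

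The 8 genes, the 8 family lists and the 11 marker lists were chosen with earlier results of these data known. Named genes were the 8, the 3 nearest by likeness, chromosomal neighbours, family genes passing in the pooled comparison or in the same gene cluster, and defining markers. Smtnl1, Arap1, Arap2, Apoe and Enpp1 were named after their values were seen.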

Additional observations from a re-analysis of the deposited data

Results flagged for a closer look

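Of 32 combinations of gene and gate, 8 held a library far from the other 3 by Dixon's test, where chance gives about 1 in 20 for independent groups. The test was run on CPM without logs, all 8 were high values, and the genes varied together over libraries, so these are not 8 independent results. In mScarlet, library 4 stood out as high for R3hdml (5.12 CPM, next 1.86), Ank (4.28 CPM, next 1.95) and Gzme (4.27 CPM, next 0.643). In DP, library 4 stood out as high for Smtn (36.9 CPM, next 16.5) and Cdh15 (6.78 CPM, next 1.69). In GFP, library 1 stood out as high for Arap3 (79.3 CPM, next 38.8) and Apoa1 (12.6 CPM, next 4.99), and in DN, library 2 for R3hdml (29.3 CPM, next 11.3). The causes were not tested.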

How the results depend on the processing

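The pooled comparison called 7 or 8 of the 8 genes as lower in all 24 alternatives, Apoa1 missing where GFP libraries 1 and 4 were left out. Leaving out 1 library at a time, the calls ran from 0 to 7 in mScarlet vs DN, 2 to 7 in DP vs DN, 0 to 4 in DP vs GFP and 8 to 8 in the pooled comparison, and stayed at 0 in GFP vs DN, DP vs mScarlet and the interaction. In mScarlet vs DN DESeq2 called 8 and limma voom 5, beside 808 and 765 of all genes tested. Limma voom called 4 in DP vs DN and DESeq2 called 7 in DP vs GFP, while both called 1 in GFP vs DN. Of all genes tested, limma voom called 924 in DP vs DN and DESeq2 called 1010 in DP vs GFP. In GFP vs DN limma voom called 2 and DESeq2 245. In DP vs GFP 0 of the 8 passed with only those gates in the fit and 0 without GFP libraries 1 and 4. Without mScarlet library 4 and DP library 4, a setting chosen after seeing the data, 5 passed. Of all genes tested, these settings called 1, 1 and 174. For the pooled comparison and the interaction a fit of only the groups compared was not run, since these use all gates. Of the counts of all genes called, those by leaving out 1 library ran from 17 to 362 in mScarlet vs DN, 105 to 532 in DP vs DN and 1 to 297 in DP vs GFP, and the other settings gave up to 245 in GFP vs DN, 50 in DP vs mScarlet and 38 in the interaction, where the main count was 0. In the pooled comparison, leaving out 1 library gave 861 to 1640 and the other settings 681 to 2354, against 1393 in the main fit.

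With the library number as a replicate block, 8, 8 and 7 genes were called in mScarlet vs DN, DP vs DN and DP vs GFP. Of all genes tested, 865, 1017 and 813 were called there in either direction, against 188, 371 and 90 in the main fit. The block called 0 in GFP vs DN, where Cdh15 had an edgeR adjusted p = 0.0529. Libraries of 1 number deviated together in 23 of 24 pairs by an r over 0.1 (lowest 0.0919), and 16 of 16 correlated best with their own number, a hint from the data. The labels do not say that a number is 1 mouse, and the block was not used as the main fit.

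No fold change against an mScarlet-negative gate changed direction for DP or mScarlet. Changes of direction were limited to fold changes that had not passed, and the cause was not tested. In GFP vs DN, Ank was at -0.0296 with limma voom and -0.22 without GFP libraries 1 and 4, and ran from -0.19 to 0.61 leaving out 1 library, while R3hdml ran from -0.78 to 0.15. In DP vs mScarlet, Arap3 was at 0.0079 with library totals only, 0.00078 with no filter, 0.11 with limma voom, 0.0029 with only those gates, 0.00061 without GFP libraries 1 and 4 and 0.10 without mScarlet library 4 and DP library 4, where Gzme was at 0.31. Leaving out 1 library there, Serpind1 ran from -0.73 to 0.33, R3hdml from -0.17 to 0.81, Arap3 from -0.36 to 0.46, Ank from -0.21 to 0.76 and Gzme from -1.69 to 0.40. In the interaction, Smtn was at 0.0831 with library totals only, 0.0745 with limma voom and 0.69 without GFP libraries 1 and 4, and leaving out 1 library it ran from -0.52 to 0.44, Ank from -0.34 to 0.63, Apoa1 from -0.14 to 1.197 and Gzme from -0.33 to 1.74.

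The lowest count in any library was 19 for Gzme (DP library 2) and 27 for Apoa1 (mScarlet library 2). In mScarlet vs DN, these 2 genes did not pass by edgeR but passed by DESeq2. The lowest Gzme count in the libraries compared there was 28. The part of depth and of this spread in these calls was not tested.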
